A study of Mus musculus with 10 samples.

Results

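The genes described here are 37 genes of B cells and of the antibody-secreting plasma cells that arise from them, chosen by name from the pathway of B cell receptor (BCR) signaling, from B cell identity and from the plasma cell program. All 37 were found among the 21010 genes of the deposited count table, 36 by their own symbol and Jchain under its older symbol Igj. Of these, 29 passed the filter on low counts and were among the 15728 genes tested. RNA of kidneys was sequenced from 5 KM and 5 KMS mice of C57BL/6 background, 20 weeks old, with 1 library per mouse. KM mice carry Ksp1.3/cre and MYCfl/fl, so that MYC is overexpressed where the Ksp (Cdh16) promoter is active, in the tubular epithelium, and KMS mice carry Setd2fl/fl in addition. The methods write the MYC allele as R26StopFL/+. Both groups thus carry the Cre and the MYC allele, neither group is a normal kidney, and the alleles are directed at the epithelium and not at leukocytes. The origin of the RNA is given in 3 ways, as primary epithelial cells of cortical tubules in the labels, as kidney tissue in the methods, and as cysts (KM) or neoplastic masses (KMS) in the reporting form.

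A B cell senses antigen through a membrane immunoglobulin paired with the CD79A and CD79B chains, whose cytoplasmic motifs recruit the kinases LYN, SYK and BTK, the adaptor BLNK and the phospholipase PLCG2. Surface co-receptors raise or damp that signal, PAX5 and EBF1 hold B cell identity, and IRF4 and PRDM1 drive the passage to plasma cells, which secrete antibody joined in polymers by the J chain. B cells are few in a healthy kidney and can gather in an inflamed one. Many genes of the pathway are not private to B cells, since myeloid cells use SYK, BTK, PLCG2 and PIK3AP1, and epithelium and stroma express Sdc1, Prdm1 and Ebf1. The members were therefore read in 3 classes, with 22 largely of the B lineage, 12 shared with other leukocytes and 3 shared with epithelium or stroma.

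KM libraries held 10873993 to 14564152 counts and KMS libraries held 16925118 to 25029639. Setd2 was at 67.9 ± 3.95 CPM (counts scaled to library size, SD, n = 5) in KM and 57.0 ± 25.0 in KMS, so the targeted gene did not separate the libraries, and the deposited counts per gene do not show whether the deleted exons were read. KMS replicate 5 stood apart from its group, with a mean Spearman correlation of 0.851 to the other KMS libraries. Markers of tubule were abundant in every library (summed CPM 4527 to 12354 in KM, 4811 to 13328 in KMS), and pan-leukocyte markers were found beside them (85.2 to 277 in KM, 48.8 to 125 in KMS). Sex is not labelled, and the reporting form states that male and female mice were used. Summed, 4 Y chromosome genes were at 461, 442, 67.7, 0 and 183 CPM in KM replicates 1 to 5 and 0.70, 1.33, 0, 126 and 23.2 CPM in KMS replicates 1 to 5. Y-linked expression was thus unevenly spread over the groups, and the part of sex cannot be fully told apart from that of genotype.

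B and plasma cell genes were at lower level in KMS, but no single member passed the adjusted threshold of the edgeR quasi-likelihood test. The fold change was negative for 28 of the 29 tested members, with a median log2 fold change (KMS minus KM) of -1.89 beside 0.06 over all genes tested, of which 46.0% were negative. The test called 0 of 29 members lower at an adjusted p under 0.05 with its fold threshold, against 0.0763% of all genes tested. At an unadjusted p under 0.05, 21 of 29 members (72.4%) were lower, against 8.62% of all genes tested. Every KM library lay above every KMS library in 9 of 29 members, against 2.94% of all genes tested. These counts and the median include 16 members that were not past the filter in every KMS library. For those 16, the values are no support for the direction. In bulk RNA, fewer B cells and less of these RNAs per cell cannot be told apart.

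The number of calls depended on the tool. DESeq2, run on the table without that filter, called 17 of 37 members lower, against 4.07% of the genes it tested. The likelihood ratio test of edgeR called 12 of 29 against 2.99%, and limma-voom called 1 of 29, Tnfrsf13b, against 0.172%. The filter itself favored members that were high in KM. Of the 29 tested members, 16 were past its cutoff (0.635 CPM at the median depth) in KM but not in every KMS library, so their counts describe the libraries and are no support for the direction. The other 13 were past it in every KMS library, and 8 of these were lower at an unadjusted p under 0.05, against 5.35% of the 12932 genes past it in every KMS library. These 8 were Cd79a, Syk, Irf4, Jchain, Sdc1, Plcg2, Pik3cd and Pik3ap1. Only Cd79a and Jchain among them are largely of the B lineage. Without KM replicates 1 and 2, neither was lower at that threshold (edgeR unadjusted p = 0.299 for Cd79a and 0.615 for Jchain). In position, 16 of the 37 members overlap another annotated gene (Tnfrsf13b with Usp22 and Cd72 with Tesk1, for example), and reads of such neighbors may be shared.

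**Figure D1:**
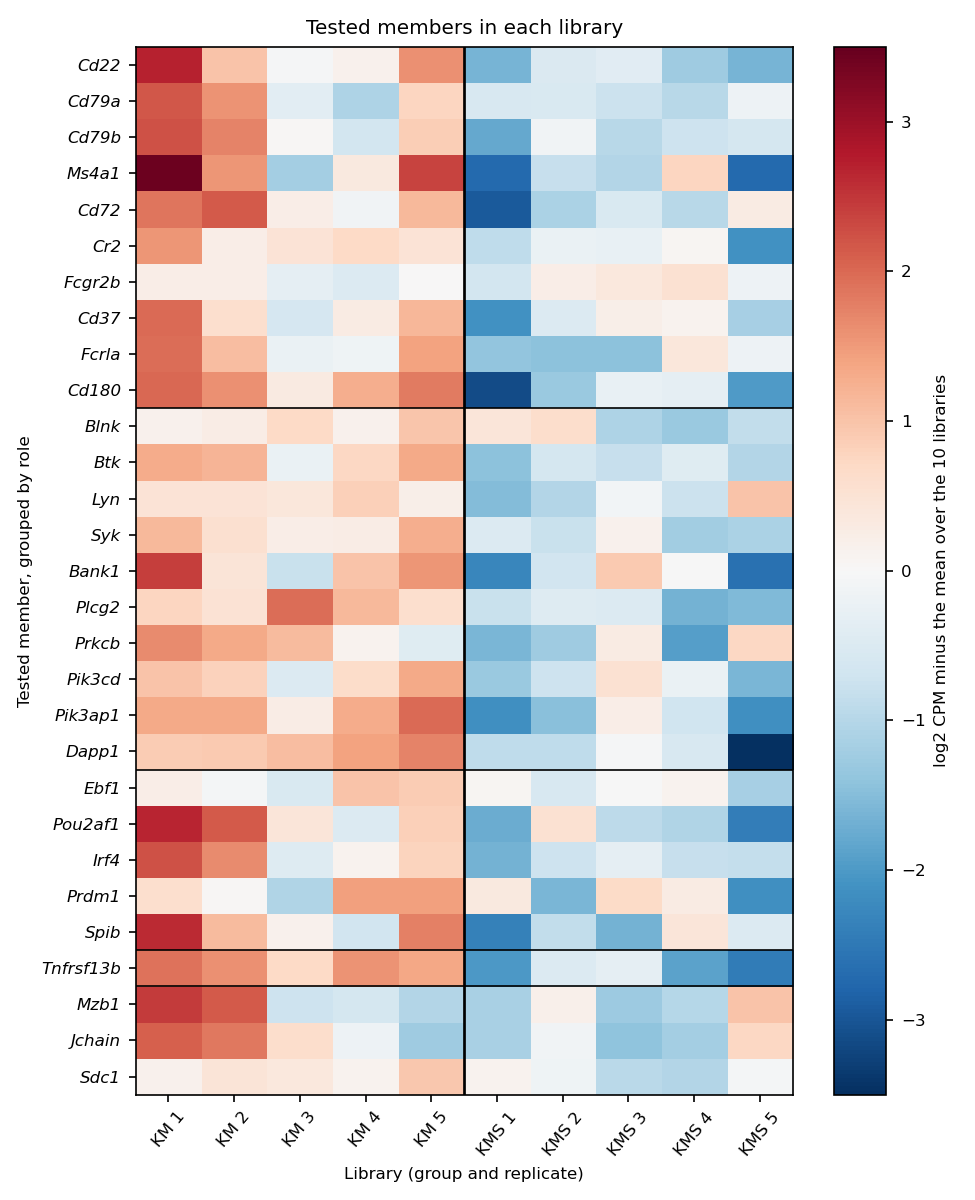
Heat map of the 29 tested members (rows, grouped by role) in the 10 libraries (columns), with color giving log2 CPM minus the gene's mean over the libraries. KM replicates 1, 2 and 5 carry most of the high values, KM replicates 3 and 4 lie closer to KMS for the B lineage genes, and Fcgr2b is nearly even across the plot.

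The antigen receptor itself was measured through its signaling chains. Cd79a (GRCm38.p6 chr7:24897497-24901858) was at 16.0, 10.6, 2.60, 1.51 and 5.95 CPM in KM replicates 1 to 5 and at 2.29, 2.31, 1.95, 1.65 and 2.99 CPM in KMS replicates 1 to 5. Its partner Cd79b was at 12.7, 9.08, 2.66, 1.58 and 4.86 CPM in KM and at 0.61, 2.37, 1.24, 1.48 and 1.62 CPM in KMS. For both chains KM replicates 1, 2 and 5 were above all KMS libraries, while KM replicate 4 was below every KMS library for Cd79a and within the KMS range for Cd79b. The log2 fold change was -1.71 (SE 0.573, edgeR adjusted p = 0.184) for Cd79a and -2.07 (SE 0.586, edgeR adjusted p = 0.153) for Cd79b. Ms4a1, which encodes the B cell surface protein CD20, was at 12.96, 3.40, 0.36, 1.38 and 6.10 CPM in KM and at 0, 0.52, 0.41, 1.87 and 0 CPM in KMS. Its 2 libraries without a count, KMS replicates 1 and 5, allow a level of up to 0.140 and 0.187 CPM (3 counts, covering counting error only). The groups overlapped and the fold change was imprecise (log2 -3.09, SE 1.17, edgeR adjusted p = 0.206).

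Of the 10 tested receptors and co-receptors, Cd22, Cd180 and Cr2 did not overlap between the groups (2.94% of all genes tested). All of these were past the filter in KM but not in every KMS library, so their separation is no support for the direction. Cd22, a sialic acid-binding inhibitory receptor, was at 11.1, 3.25, 1.48, 1.72 and 5.08 CPM in KM replicates 1 to 5 and at 0.37, 1.04, 1.122, 0.55 and 0.37 CPM in KMS replicates 1 to 5. No KMS library reached the lowest KM library, and the log2 fold change was -2.70 (SE 0.634, edgeR adjusted p = 0.125, DESeq2 adjusted p = 0.00108). Cd72, an inhibitory lectin, was at 20.7, 24.9, 6.51, 5.09 and 12.3 CPM in KM and at 0.56, 2.48, 3.72, 2.75 and 6.79 CPM in KMS. KMS replicate 5 exceeded KM replicates 3 and 4 for Cd72, and its log2 fold change was -2.09 (SE 0.618, edgeR adjusted p = 0.164).

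Cd180, a Toll-like receptor relative found on B cells and on myeloid cells, was at 9.61, 7.18, 2.84, 5.64 and 8.34 CPM in KM and at 0.09, 0.81, 1.83, 1.76 and 0.44 CPM in KMS. The groups did not overlap (log2 fold change -2.76, SE 0.657, edgeR adjusted p = 0.125, DESeq2 adjusted p = 0.000735). Fcrla, an Fc receptor-like protein kept inside the cell, was at 3.57, 1.89, 0.65, 0.69 and 2.39 CPM in KM and at 0.19, 0.17, 0.18, 1.10 and 0.69 CPM in KMS. KMS replicate 4 exceeded KM replicates 3 and 4 for Fcrla, KMS replicate 5 exceeded KM replicate 3, and its log2 fold change was -1.97 (SE 0.694, edgeR adjusted p = 0.192). Cr2, the complement receptor that lowers the threshold of B cell activation, spanned 2.04 to 5.36 CPM in the KM libraries and 0.25 to 1.81 CPM in the KMS libraries without overlap (log2 fold change -1.40), and the tetraspanin Cd37 had 1.95 to 12.4 CPM in KM and 0.56 to 3.54 CPM in KMS with overlap (log2 fold change -1.46).

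Fcgr2b was the exception of the whole group. It encodes the inhibitory receptor for IgG, which macrophages and endothelium express as well as B cells. Its level was 62.3, 62.8, 42.5, 37.9 and 53.8 CPM in KM replicates 1 to 5 and 33.8, 62.7, 69.1, 76.7 and 46.9 CPM in KMS replicates 1 to 5. The groups overlapped over nearly their whole range, and the log2 fold change was 0.16 (SE 0.252, edgeR adjusted p = 0.767).

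The remaining receptors were near the limit of detection. Fcer2a, the low-affinity IgE receptor of mature B cells, had 4 to 28 counts in the KM libraries and 0 to 6 in KMS. Fcrl1 had 9 to 31 counts in KM and 0 to 8 in KMS, Fcrl5 had 0 to 17 and 0 to 3, and Vpreb3, a chaperone of the precursor receptor, had 0 to 9 and 1 to 4. None of these receptors entered the filtered test, and DESeq2 called Fcer2a (log2 fold change -3.11, adjusted p = 0.0477) and Fcrl1 (-2.67, adjusted p = 0.0392) lower.

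Promoter sequence was examined for letters that B lineage factors bind, since most members had fold changes of the same sign. RefSeq (GRCm38.p6) gave 39 promoters for 32 of the 37 members, each 250 bases before to 50 bases after an annotated start, and both strands were searched. The octamer ATTTGCAT, bound by OCT factors with the coactivator encoded by Pou2af1, was in 3 of the 39 (those of Blnk, Prkcb and Vpreb3) and in 1.74% of 32851 promoters. The palindrome of EBF1, in which TCCC is followed after any 2 bases by GGGA, was in 1 of the 39 (Cd22) and in 0.904% of promoters. The core GAGGAAGT, bound by PU.1 and by the product of Spib, was in 3 of the 39 (Cd37, Cd72 and Fcrl1) and in 3.20% of promoters. These motifs do not overlap one another in the sequences shown, and a match is a description of the letters and not of a bound site. One promoter for each motif is printed 5′ to 3′ on the strand of the gene, with the match in capitals. The EBF1 palindrome is shown for Cd22 (chr7:30878979-30879278, minus strand, a start inside the gene). The core is shown as its reverse complement for Cd72 (chr4:43454577-43454876, minus strand, also a start inside the gene). The octamer is shown for Blnk (chr19:40994172-40994471, minus strand). The first capital lies 49, 49 and 130 bases before the start in Cd22, Cd72 and Blnk.
Cd22: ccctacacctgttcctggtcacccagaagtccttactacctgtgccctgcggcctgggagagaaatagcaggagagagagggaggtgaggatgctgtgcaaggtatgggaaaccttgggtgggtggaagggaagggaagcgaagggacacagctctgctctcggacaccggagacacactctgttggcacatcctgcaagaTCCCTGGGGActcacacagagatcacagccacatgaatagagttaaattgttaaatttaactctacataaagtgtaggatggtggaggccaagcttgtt
Cd72: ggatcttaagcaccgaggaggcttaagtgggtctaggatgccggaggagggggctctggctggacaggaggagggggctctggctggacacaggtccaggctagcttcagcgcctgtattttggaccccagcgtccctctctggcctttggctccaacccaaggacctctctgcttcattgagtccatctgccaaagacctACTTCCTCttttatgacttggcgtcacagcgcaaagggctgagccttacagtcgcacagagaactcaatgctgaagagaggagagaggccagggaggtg
Blnk: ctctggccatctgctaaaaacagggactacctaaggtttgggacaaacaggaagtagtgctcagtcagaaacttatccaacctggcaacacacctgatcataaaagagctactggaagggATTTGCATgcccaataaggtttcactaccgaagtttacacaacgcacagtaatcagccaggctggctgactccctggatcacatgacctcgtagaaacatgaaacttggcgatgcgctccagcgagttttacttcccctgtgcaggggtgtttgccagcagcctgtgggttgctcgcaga
The log2 fold changes of these genes were -2.70 for Cd22, -2.09 for Cd72 and -0.71 for Blnk.

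Downstream of the receptor, 5 of 10 tested signaling genes did not overlap between the groups (2.94% of all genes tested), and Plcg2 had the lowest p of the tested members. Among these 5, Btk and Dapp1 were not past the filter in every KMS library, so their separation is no support for the direction. Plcg2 (GRCm38.p6 chr8:117498275-117635142), the phospholipase that turns receptor signal into calcium release, was at 15.7, 13.2, 36.4, 20.6 and 14.004 CPM in KM replicates 1 to 5 and at 5.33, 6.75, 6.56, 2.80 and 3.05 CPM in KMS replicates 1 to 5. The lowest KM library was well above the highest KMS library, and KM replicate 3, which was among the lowest for B lineage genes, was the highest for Plcg2. Its log2 fold change was -2.03 (SE 0.381, edgeR adjusted p = 0.082, DESeq2 adjusted p = 9.4e-05).

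Of the kinases named for the first steps of the signal, Btk and Syk did not overlap between the groups and Lyn did. Btk was at 4.47, 4.08, 1.42, 2.96 and 4.57 CPM in KM and at 0.51, 1.04, 0.89, 1.21 and 0.75 CPM in KMS. Syk was at 19.6, 13.1, 10.3, 10.5 and 21.4 CPM in KM and at 6.27, 5.02, 9.87, 3.68 and 3.99 CPM in KMS. The lowest KM library was above the highest KMS library for each, although KM replicate 3 and KMS replicate 3 were close for Syk. The log2 fold change was -1.98 (SE 0.424, edgeR adjusted p = 0.105) for Btk and -1.38 (SE 0.352, edgeR adjusted p = 0.138) for Syk. Lyn, the SRC-family kinase that starts and also restrains the signal, spanned 9.07 to 14.03 CPM in the KM libraries and 2.62 to 15.9 CPM in the KMS libraries, where KMS replicate 5 was the highest of the 10 libraries (log2 fold change -0.70, edgeR adjusted p = 0.403). Blk, the SRC-family kinase largely limited to B cells, had 38, 14, 33, 5 and 31 counts in KM and 3, 1, 5, 0 and 0 counts in KMS, too few for the filtered test. DESeq2 called Blk lower with a log2 fold change of -4.08 (adjusted p = 0.000294).

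Adaptors that couple the receptor to phosphoinositide 3-kinase were separated as well. Pik3ap1, the adaptor also known as BCAP, was at 15.9, 15.8, 7.46, 15.6 and 25.0 CPM in KM and at 1.26, 2.14, 7.38, 3.79 and 1.25 CPM in KMS. Dapp1, an adaptor that binds the lipid products of that kinase, was at 7.22, 7.34, 8.23, 10.3 and 12.9 CPM in KM and at 1.96, 1.96, 3.66, 2.53 and 0.12 CPM in KMS. The groups did not overlap for either adaptor, but KM replicate 3 and KMS replicate 3 were nearly level for Pik3ap1. The log2 fold change was -2.33 (SE 0.531, edgeR adjusted p = 0.116) for Pik3ap1 and -2.16 (SE 0.585, edgeR adjusted p = 0.149) for Dapp1. The kinase subunit Pik3cd (log2 fold change -1.26), the protein kinase C isoform Prkcb (-1.53) and the scaffold Bank1 (-1.89) overlapped between the groups. Blnk, the adaptor that joins SYK to PLCG2, spanned 42.6 to 75.2 CPM in the KM libraries and 15.6 to 58.7 CPM in the KMS libraries, with KMS replicates 1 and 2 inside the KM range, and it was highest in KM replicate 5 (log2 fold change -0.71, edgeR adjusted p = 0.332). Although Blnk is counted in the B lineage class, its KM libraries spanned 0.82 on the log2 scale, beside a class median of 3.01. Which cells held Blnk RNA was not tested.

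**Figure D2:**
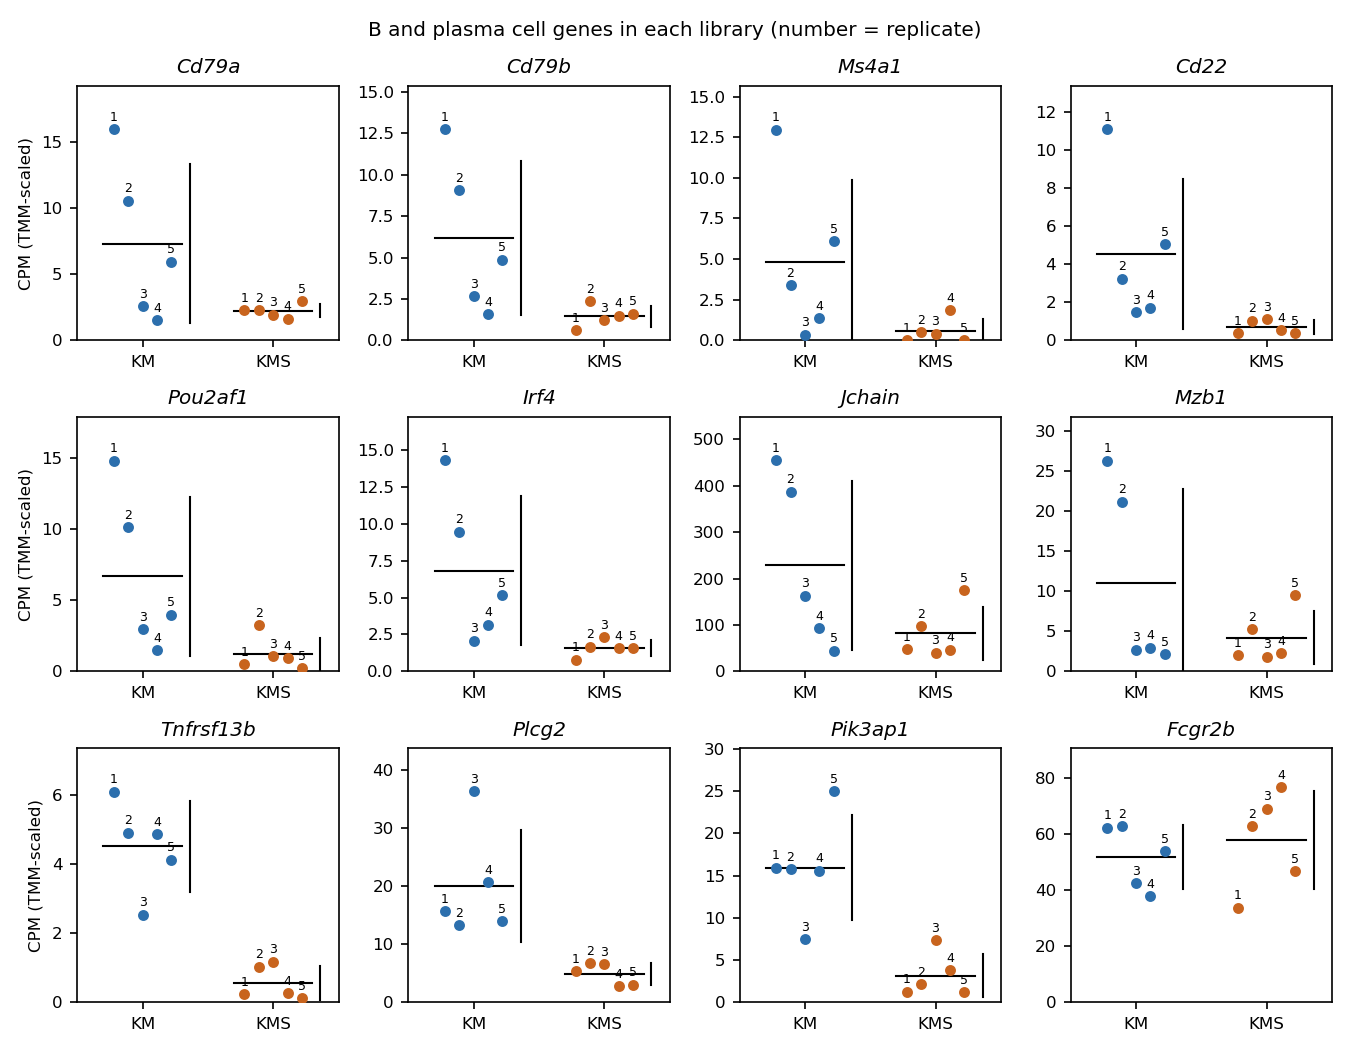
Dot plots of 12 members with CPM on a linear axis from 0, each point a library with its replicate number, the horizontal line the mean and the vertical line 1 SD (n = 5, drawn no lower than 0). KM replicate 1 is the highest point for most of the B lineage genes, all KM points of Plcg2, Tnfrsf13b, Cd22 and Pik3ap1 lie above all KMS points, and KMS replicate 5 is the highest KMS point for Jchain and Mzb1.

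All 5 tested transcription factors had negative fold changes and overlapping groups. Pou2af1, a coactivator of octamer-bound transcription in B cells, was at 14.8, 10.1, 2.96, 1.51 and 3.99 CPM in KM replicates 1 to 5 and at 0.51, 3.23, 1.06, 0.93 and 0.25 CPM in KMS replicates 1 to 5. Irf4, needed for plasma cell formation and found in some T cells and dendritic cells, was at 14.3, 9.45, 2.07, 3.16 and 5.15 CPM in KM and at 0.79, 1.67, 2.30, 1.59 and 1.56 CPM in KMS. Both were highest in KM replicates 1 and 2, and 1 KMS library exceeded the lowest KM library for each. The log2 fold change was -2.47 (SE 0.764, edgeR adjusted p = 0.166) for Pou2af1 and -2.10 (SE 0.540, edgeR adjusted p = 0.138) for Irf4. Pax5, the factor that commits cells to the B lineage, had 37, 7, 12, 4 and 24 counts in KM and 2, 3, 6, 0 and 1 counts in KMS, or 1.202 ± 1.03 and 0.137 ± 0.137 CPM (SD, n = 5). It was below the filter, and DESeq2 called it lower with a log2 fold change of -3.14 (adjusted p = 0.0108). Spib, an ETS factor of B cells and plasmacytoid dendritic cells, was at a log2 fold change of -2.51 with overlap (edgeR adjusted p = 0.198). Ebf1 and Prdm1, which stroma and epithelium also express, had log2 fold changes of -0.69 and -0.88 and overlapped widely.

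Receptors for the survival factors BAFF and APRIL were led by Tnfrsf13b. It encodes TACI, found on B cells and plasma cells, and lies at GRCm38.p6 chr11:61126283-61153170. Its level was 6.11, 4.92, 2.55, 4.88 and 4.14 CPM in KM and 0.23, 1.04, 1.18, 0.27 and 0.12 CPM in KMS. The groups did not overlap (2.94% of all genes tested), and its KM libraries spanned 1.20 on the log2 scale. Tnfrsf13b was past the filter in 5 KM libraries but in only 2 KMS libraries, so its separation is no support for the direction. The log2 fold change was -2.97 (SE 0.607, edgeR adjusted p = 0.105), and it was the 1 member that limma-voom called (adjusted p = 0.0456). Tnfrsf13c, the BAFF receptor, had 6 to 37 counts in KM and 1 to 12 in KMS, and Tnfrsf17, the plasma cell receptor BCMA, had 1 to 16 and 1 to 5, and neither entered the filtered test or was called by DESeq2 (adjusted p = 0.0918 and 0.231).

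All 3 plasma cell genes overlapped between the groups. Jchain (GRCm38.p6 chr5:88519809-88527897), which joins secreted IgA and IgM into polymers, was at 455, 388, 163, 93.8 and 44.99 CPM in KM replicates 1 to 5 and at 48.6, 98.1, 40.4, 47.1 and 175 CPM in KMS replicates 1 to 5. Mzb1, a chaperone of antibody secretion, was at 26.3, 21.2, 2.72, 2.96 and 2.18 CPM in KM and at 2.01, 5.31, 1.83, 2.25 and 9.53 CPM in KMS. KM replicates 1 and 2 were the highest and KMS replicate 5 the third highest of the 10 libraries for both genes. The log2 fold change was -1.48 (SE 0.628, edgeR adjusted p = 0.234) for Jchain and -1.40 (SE 0.792, edgeR adjusted p = 0.346) for Mzb1. Without KM replicates 1 and 2, the value of Mzb1 turned to 0.68. Sdc1, the plasma cell surface proteoglycan that epithelium also makes, was at 45.6 ± 11.5 CPM in KM and 26.6 ± 9.08 in KMS (SD, n = 5), and its log2 fold change was -0.78 (edgeR, adjusted p = 0.192).

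Immunoglobulin rows, looked at after the members' values were known, differed among themselves in which libraries were high. The summed level of 72 kappa variable segments was 355, 264, 183, 77.1 and 68.7 CPM in KM replicates 1 to 5 and 83.2, 56.5, 40.1, 37.7 and 190 CPM in KMS replicates 1 to 5. KM replicates 1 and 2 were again the highest and KMS replicate 5 the third highest. In contrast, 52 heavy chain variable segments summed to 2.76, 3.03, 37.9, 16.0 and 25.4 CPM in KM replicates 1 to 5 and to 2.87 to 9.81 CPM in KMS, and 3 lambda variable segments to 0.37, 0.38, 1.60, 1.93 and 8.93 CPM in KM and to 0.44 to 1.54 CPM in KMS. KM replicates 1 and 2 were thus the lowest KM libraries for both. The heavy chain locus row Igh lay between 63.3 and 210 CPM in KM and between 55.2 and 110 CPM in KMS. Among constant regions, Ighm was at 39.5 CPM in KM replicate 5 and at no more than 2.30 CPM in any other library. Of 8 tested genes of constant regions and surrogate light chain, 7 had negative fold changes (46% of all genes tested). Ighg2b (log2 -2.30) and Ighg2c (-2.31), 2 of the 8, were lower at an unadjusted p under 0.05 (8.62% of all genes tested). These rows are uncertain, because variable segments are near-identical copies and the locus rows overlap the constant regions, so reads could be split among them.

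**Figure D3:**
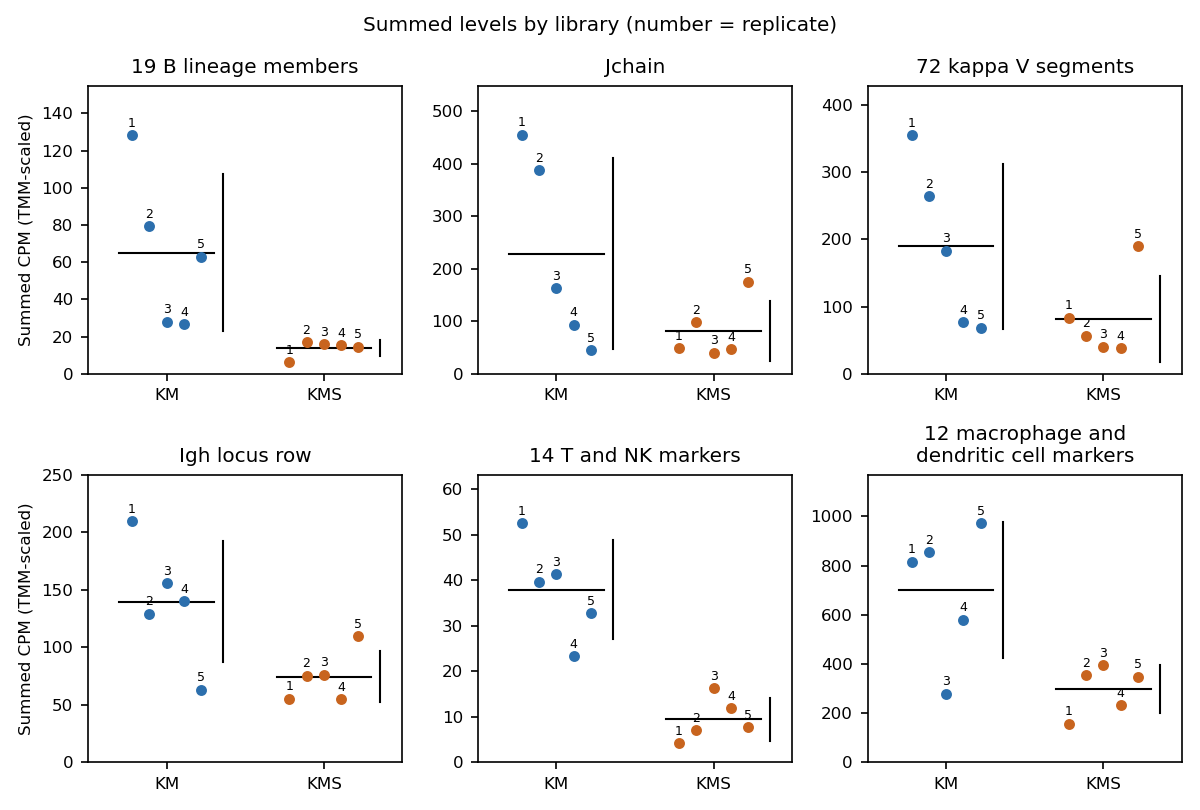
Dot plots of summed CPM per library on linear axes from 0 for 6 sets of rows, with replicate numbers, the mean (horizontal line) and 1 SD (vertical line, n = 5, drawn no lower than 0). The sum of 19 B lineage members is above 26 CPM in all KM libraries and below 18 CPM in all KMS libraries. These 19 were chosen after their values were seen, so this separation is a description only, and the sum of all 22 (not drawn) overlaps. Jchain, the kappa segments and the Igh row overlap between the groups.

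Many B lineage members were high or low in the same KM libraries. Their sum without Blnk, Jchain and Mzb1, a set of 19 chosen after their values were seen, was 128, 79.6, 28.1, 26.7 and 62.9 CPM in KM replicates 1 to 5 and 6.27, 17.0, 16.0, 15.6 and 14.5 CPM in KMS replicates 1 to 5. The mean of that sum was 4.70 times higher in KM, and it differed 4.80 times between the highest and the lowest KM library. With Blnk, Jchain and Mzb1 included, the sum of all 22 was 653, 535, 257, 166 and 185 CPM in KM and 108, 179, 76.3, 80.5 and 220 CPM in KMS. That sum was 2.70 times higher in KM on average and overlapped between the groups. Of the 14 tested B lineage members, 12 were highest in KM replicate 1 and 11 were lowest in KM replicate 3 or 4. The median distance between the highest and lowest KM library was 3.01 on the log2 scale for these 14, 1.63 for the 12 members shared with other leukocytes and 0.889 over all genes tested. Only 3 of the 14 B lineage members (Cd22, Cr2 and Tnfrsf13b) but 6 of the 12 shared members (Btk, Syk, Cd180, Plcg2, Pik3ap1 and Dapp1) did not overlap between the groups, beside 2.94% of all genes tested, and the difference between the classes was not tested. Among these members, only Syk, Plcg2 and Pik3ap1 were past the filter in every KMS library. For the others, the separation is no support for the direction.

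KM replicates 1 and 2 also had the highest level of Y chromosome genes. KM libraries had mean Spearman correlations of 0.934 to 0.958 to their own group, and the correlation between KM replicates 1 and 2 was 0.993. Without both, 10 of 30 tested members were lower at an unadjusted p under 0.05 in the edgeR test, against 5.49% of all genes, and the median log2 fold change was -1.20. With the level of the Y chromosome genes as a covariate, 10 of 29 were, against 6.78% of all genes, and the median was -1.24. Cd79a, for example, went from -1.71 to -0.57 without these libraries and to -0.52 with the covariate. Btk, Cd22, Cd180, Dapp1, Pik3ap1, Plcg2, Syk and Tnfrsf13b were lower at an unadjusted p under 0.05 in the fit with all libraries and in each of 23 alternatives. These 8 were also called by DESeq2, by the likelihood ratio test and by the fit with 1 factor of unwanted variation (RUVg). The RUVg fit called 8 of 29 members lower, against 2.02% of all genes tested. In class, 6 of the 8 are shared with other leukocytes. Of the 8, Plcg2, Syk and Pik3ap1 were past the filter in every KMS library, while Btk, Cd22, Cd180, Dapp1 and Tnfrsf13b were not, so for these 5 the count describes the libraries and is no support for the direction.

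**Figure D4:**
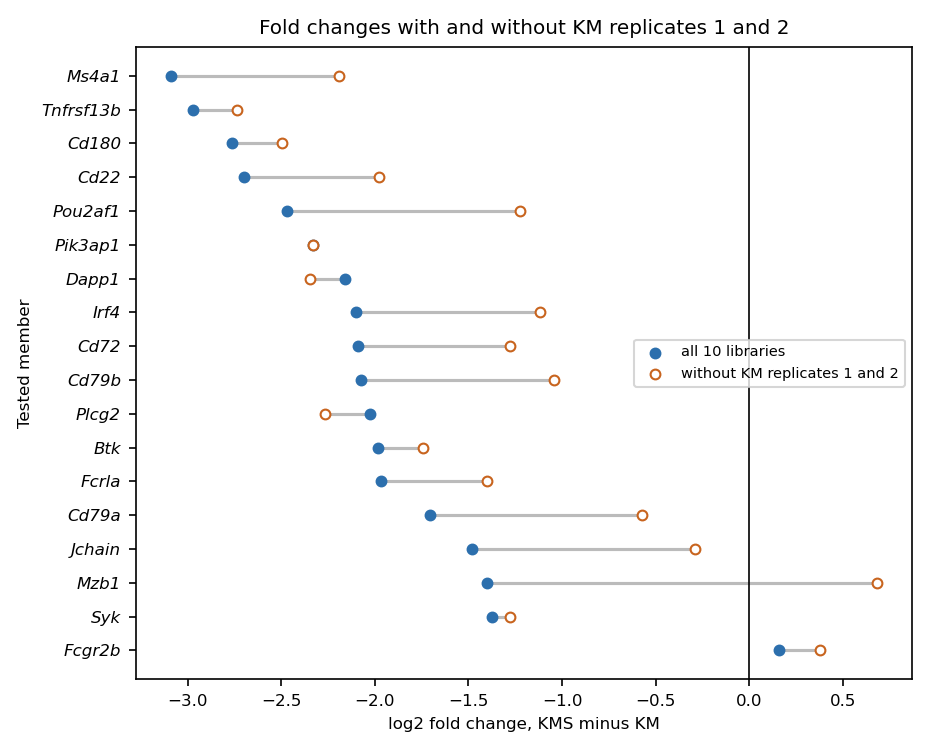
Log2 fold change (KMS minus KM, horizontal axis) of the 18 tested members given with full statistics, with all 10 libraries (filled) and without KM replicates 1 and 2 (open). Plcg2, Pik3ap1, Dapp1, Btk and Syk moved little, Cd79a, Pou2af1 and Jchain moved toward 0, and Mzb1 crossed 0 to 0.68.

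Markers of T cells, macrophages and fibroblasts were also examined, and among those given here only Lum passed the adjusted edgeR threshold. Of 14 T and NK cell markers, 9 were tested and 6 were lower at an unadjusted p under 0.05, against 8.62% of all genes tested. That share also stands beside the counts of other markers below. The 14 markers summed to 23.3 to 52.6 CPM in KM and 4.26 to 16.2 CPM in KMS. Cd8a showed a log2 difference of -3.59 (edgeR, adjusted p = 0.105), but its KMS replicates 1 and 5, at 0.187 and 0.249 CPM, were below the filter's cutoff. Of 12 macrophage and dendritic cell markers, 7 were lower, with a sum of 279 to 973 CPM in KM and 157 to 397 CPM in KMS, and Csf1r showed a log2 difference of -1.45 (edgeR, adjusted p = 0.116). Of 7 fibroblast markers, 5 were lower, with a sum of 246 to 548 CPM in KM and 128 to 189 CPM in KMS, and Lum was called (log2 fold change -3.44, edgeR adjusted p = 0.0233). Of 10 tubule markers, 4 had negative fold changes, 1 was lower and the median log2 fold change was 0.20. The sum of the 19 B lineage members without Blnk, Jchain and Mzb1, chosen after their values were seen, was divided by that of 5 pan-leukocyte markers. The ratio was 0.518, 0.382, 0.329, 0.139 and 0.227 in KM replicates 1 to 5 and 0.128, 0.240, 0.128, 0.188 and 0.174 in KMS replicates 1 to 5. These ratios overlapped, and the ratio was not computed for the sum of all 22. The part of these other cells, and of the tissue taken, in the members' difference was not tested.

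**Figure D5:**
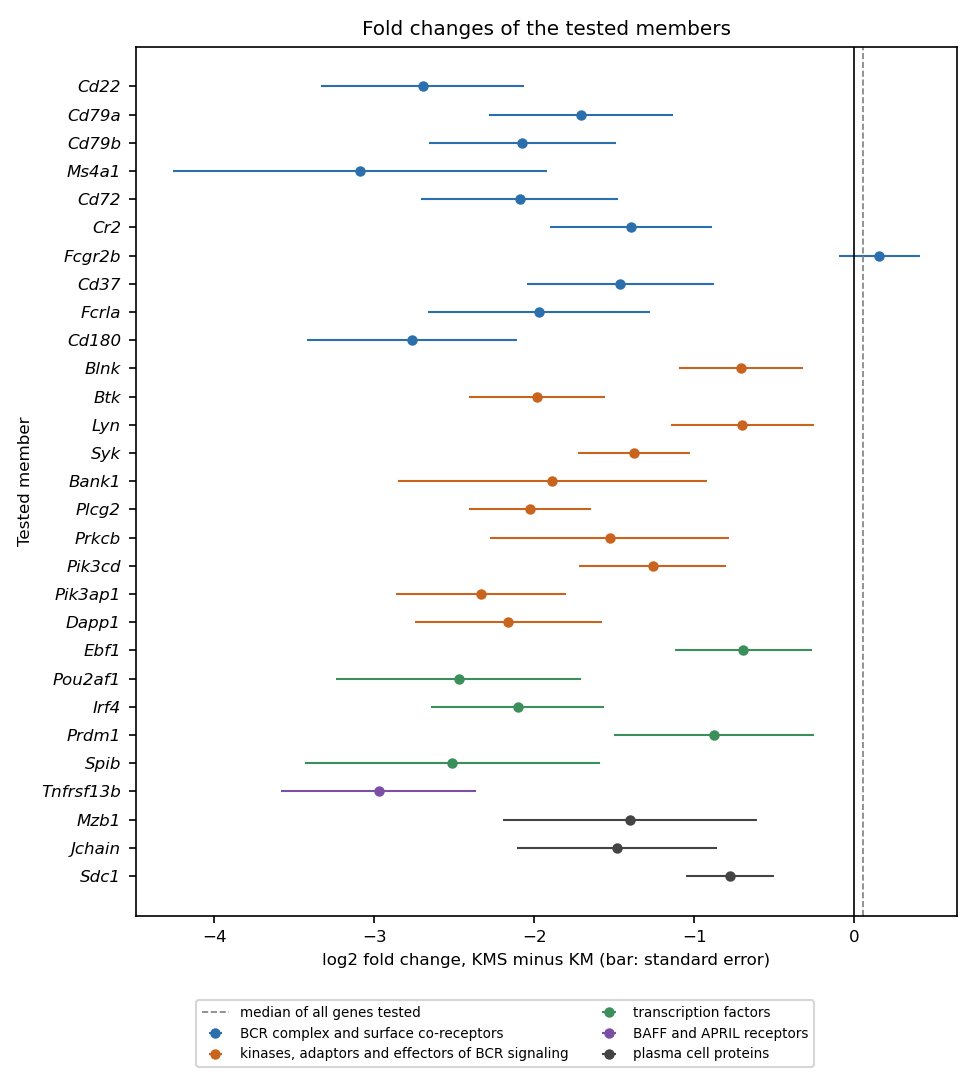
Log2 fold change (KMS minus KM, horizontal axis) with its standard error for the 29 tested members, colored by role, with a dashed line at the median of all genes tested (0.06). Fcgr2b is the only point to the right of 0, and the widest bar is that of Ms4a1.

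Other genes of the pathway followed in part. Of 26 further genes of BCR signaling, all tested, 21 had negative fold changes (46% of all genes tested), with a median log2 fold change of -0.45. At an unadjusted p under 0.05, 9 of these were lower (8.62% of all genes tested) and 0 were higher. The guanine nucleotide exchange factor Vav1 (log2 fold change -1.58, edgeR adjusted p = 0.116), the calcium-driven factor Nfatc2 (-1.29, adjusted p = 0.138) and the kinase subunit Pik3r1 (-0.97, adjusted p = 0.153) were among those of lowest p. These 3 did not overlap between the groups (2.94% of all genes tested). Among survival and recruitment factors, Tnfsf13b, the gene of BAFF, was at 3.42 ± 0.480 CPM in KM and 0.858 ± 0.463 in KMS (SD, n = 5) without overlap. Its log2 fold change was -1.99 (edgeR, adjusted p = 0.125). KMS replicate 5, at 0.187 CPM, was below the filter's cutoff, so the separation of Tnfsf13b is no support for the direction. Ccr7 (-1.57) and the polymeric immunoglobulin receptor Pigr (-0.80) were also lower at an unadjusted p under 0.05 (8.62% of all genes tested), and Ltbr (0.99) was higher, among 10 tested. Of 12 tested germinal center and plasma cell genes outside the members, 2 were lower at an unadjusted p under 0.05 (Tent5c, -1.36, and Slamf7, -2.09). At that threshold 8.62% of all genes tested were lower. Another 2 were higher (Herpud1, 1.46, and Bcl6, 1.14). Herpud1 spanned 125 to 272 CPM in KM and 216 to 1018 CPM in KMS. Which cells held Herpud1 and Bcl6 RNA was not tested.

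Levels between genes were compared per kilobase of exon (RPKM from TMM-scaled CPM and union exon lengths of GENCODE vM21). In KM, Jchain was the most abundant member at 91.0 ± 72.4 RPKM (SD, n = 5), followed by Sdc1 (11.98 ± 3.03), Mzb1 (9.11 ± 9.64), Blnk (9.02 ± 2.40) and Fcgr2b (8.96 ± 1.96). Neighbors from Sdc1 to Fcgr2b did not differ beyond their spread. Cd79a followed at 5.03 ± 4.12 and Plcg2 at 4.65 ± 2.23, and Fcrl5 was the lowest at 0.107 ± 0.149. In KMS, Jchain was at 32.5 ± 22.7, Fcgr2b at 9.99 ± 2.999 and Cd79a at 1.54 ± 0.344 RPKM. Blnk spanned 2.61 to 9.81 RPKM over the KMS libraries, above the 1.13 to 2.05 RPKM of Cd79a.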

How the data were processed

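The authors selected polyadenylated RNA, prepared directional libraries and sequenced read pairs. According to the methods, reads were aligned to GRCm38 with HISAT2 and counted per gene with HTSeq (strand setting not given in the sources used here). Values deposited by the authors are raw counts in whole numbers, neither normalized nor pooled. The deposited log2 fold changes, p-values and adjusted p-values hold the authors' own comparison and were used in no step. All 10 columns of counts were mapped to libraries by their labels. KMS was compared with KM in R 4.3.3 with edgeR 4.0.16 (TMM factors, filterByExpr with a minimum of 10 counts, quasi-likelihood test, Benjamini-Hochberg adjustment over 15728 genes). Calls required an adjusted p under 0.05 together with a fold change over 1.5 or under 0.667. Standard errors are the log2 fold change divided by the root of the F statistic. TMM factors entered all CPM values, and a prior count of 3 was added for log2 CPM. The scripts were tested on simulated data.

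The members and gene lists were chosen with earlier results of these data known. Values in every library go to the 14 tested members of lowest p, to Cd79a, Cd79b, Ms4a1, Cd22, Pax5, Jchain and Mzb1, and to members with a positive fold change. Of other lists, up to 4 genes of lowest p are named, and some genes under this rule are not reported here. Alternatives were RLE and upper quartile factors, other filters, DESeq2 1.42.0, limma-voom 3.58.1, the likelihood ratio test, 1 RUVg factor, the replicate number as a block, thinning to the smallest total, and each library left out. Depth sets the precision, with genes of low level counted less precisely in KM. Nothing states that the mice were littermates, and the tests set the group difference against the spread between mice. Plots were drawn with matplotlib 3.10.9 in Python 3.11.15.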

Additional observations from a re-analysis of the deposited data

Results flagged for a closer look

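Among 36 groups of 5 libraries examined, 1 held a library far from the rest of its group. It was Dapp1 in KMS, where KMS replicate 5 was the lowest at 0.12 CPM beside 1.96 to 3.66 CPM in the other KMS libraries, and its gap to the nearest library was 0.768 of the group's range (critical value 0.71 for 5 samples). Chance alone gives about 5% of such groups a flag, so a single one is no pattern. KMS replicate 5 is also the library least like its group. Without it, the log2 fold change of Dapp1 was -1.83.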

How the results depend on the processing

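Each count was recomputed under 23 alternatives, of which 3 were chosen after seeing the data. The number of members called lower was 0 in edgeR's quasi-likelihood test with every normalization, filter, left-out library and added alternative. In these fits 0.0127% to 0.213% of all genes tested were called lower. The number was 17 of 37 with DESeq2 (4.07% of all genes) and 12 of 29 with the likelihood ratio test (2.99%). It was 8 of 29 with 1 RUVg factor (2.02%) and 1 of 29 with limma-voom (0.172%). With single libraries left out, 16 to 25 members were lower at an unadjusted p under 0.05, of 30 to 33 tested. The share over all genes was 6.96% to 9.93%. Without KM replicates 1 and 2, 10 of 30 were lower (5.49% of all genes). Without these and KMS replicate 5, 12 of 30 were (6.6%). With the Y chromosome genes as a covariate, 10 of 29 were (6.78%). In the same 3 fits the median log2 fold change was -1.20, -1.15 and -1.24, beside -2.10 to -1.46 with single libraries left out. Mzb1 reversed to 0.68 and 0.13 in the first 2 of them. Of 412 values of single members, 376 kept their direction and side of the threshold, 34 passed it and 2 reversed. The replicate numbers do not pair the mice (correlations of deviations -0.34, 0.14, -0.28, 0.12 and -0.44, and 0 of 5 libraries matched their own number best). With the replicate block, 0 of 29 members were called lower (0.0127% of all genes) and the median was -1.82. At an unadjusted p under 0.05, 17 of 29 were lower in that fit (6.68% of all genes). Depth limits the 8 members below the filter, among them Pax5 and Blk, whose direction rests on few counts. The table cannot tell a smaller share of B cells from less RNA per cell, nor genotype from the tissue taken. Nor can it fully tell genotype from sex.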
